A study of Homo sapiens with 18 samples.

Results

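The subunits of the oxidative phosphorylation machinery were described in RNA-seq data from MDA-MB-231 cells, a mesenchymal-like, triple-negative breast cancer cell line. The members were the protein-coding genes for subunits of complexes I to V, together with CYC1 and cytochrome c (CYCS), taken by gene symbol and without a criterion on their values. They numbered 104 of the 57448 genes in the count matrix, 91 encoded in the nucleus and 13 on mitochondrial DNA. Assembly factors and pseudogenes were not counted as members. The 18 libraries formed 6 groups of 3. WT denotes the parental MDA-MB-231 cells, cultured in high-glucose medium with serum. KO1 and KO2 are MB231-GPS2KO cells, heterogeneous pools made with 2 sets of sgRNAs against GPS2 in LentiCRISPRv2 under puromycin, and KO denotes both lines together. MB231-myrAKT cells carried a retroviral, constitutively membrane-bound (myristoylated) AKT1. KO1+MK and KO2+MK are the knockout cells after 4 h in 10 µM MK2206, an allosteric AKT inhibitor, and the other 4 groups were untreated. WT cells with MK2206, a control cell pool with a non-targeting guide and an empty-vector line were not analysed here, so that the genotype cannot be told apart from the transduction and selection that went with it.

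Oxidative phosphorylation passes electrons from NADH through complex I, or from succinate through complex II, to ubiquinone, then through complex III and cytochrome c to complex IV, where oxygen is reduced. Complexes I, III and IV pump protons across the inner mitochondrial membrane and complex V (ATP synthase) uses the gradient to make ATP. The mitochondrial genes, transcribed as long precursors that are cut at the tRNAs, supply core subunits of all the complexes except complex II, and every other subunit is transcribed in the nucleus and imported.

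The counted reads of a library ranged from 23419198 to 39319910, with fewer in the MK2206-treated cells (23419198 to 29939536) than in the untreated cells (30287210 to 39319910). Across 18 libraries VIM lay between 1294 and 1812 CPM (TMM-normalized counts relative to library size) and CD44 between 400 and 597 CPM, whereas ESR1 did not exceed 1.38 CPM and CDH1 0.128 CPM. Of the 5 markers listed as low in this line, 3 still reached at least 1 CPM in at least 3 libraries. GPS2 RNA was not called lower in either knockout pool, with 4.56 ± 0.277 CPM in WT, 4.49 ± 0.0363 CPM in KO1 and 6.02 ± 0.123 CPM in KO2 (mean ± SD, n = 3), and gene-level counts do not show whether the gene was edited. AKT1 was 135 ± 0.997 CPM in WT and 230.2 ± 11.97 CPM in myrAKT (log2 fold change 0.77 ± 0.04 (SE), adjusted p = 4.3e-09). Nothing in the labels says that replicates came from separate cultures, so the p-values measure only the spread between these samples, which may be technical. A gene was called at a Benjamini-Hochberg adjusted p of at most 0.001 in edgeR's quasi-likelihood test over 15587 genes, without a minimum fold change.

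Per kilobase of annotated exon, every mitochondrial mRNA had a higher level than every nuclear subunit mRNA. The length counts all bases annotated as exon in any transcript of a gene, and can exceed that of its mRNA. On this length-corrected scale, averaged over 18 libraries, MT-CO3 had 2538, MT-CO1 2235 and MT-CO2 2169.9 CPM per kb. These encode the 3 mitochondrial subunits of complex IV. The lowest mitochondrial mRNA was MT-ND6, transcribed from the opposite strand, with 626 CPM per kb. The 81 nuclear members that passed a filter of at least 1 CPM in at least 3 libraries ranged from 1.66 CPM per kb for NDUFA9 to 269 CPM per kb for ATP5F1B, the catalytic beta subunit of ATP synthase, with a median of 20.9 against 1036 for the 13 mitochondrial members, all of which passed. COX8A (205 CPM per kb) and NDUFS5 (118 CPM per kb) followed ATP5F1B. The order of the nuclear members depends on the annotated length. NDUFA9 had 10392 counts summed over 18 libraries on 10391 exon bases. COX7A1, at 1.75 CPM per kb, had only 624 counts, on 586 exon bases. The nuclear median also depends on these lengths, and levels per kilobase of mRNA were not computed.

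The other 10 of the 91 nuclear members, below the filter, were NDUFA7 (388 counts summed over 18 libraries), NDUFA4L2 (325), COX6B2 (170), ATP5MGL (152), ATP5MF-PTCD1 (90), COX4I2 (6), COX8C (4), NDUFC2-KCTD14 (1), COX6A2 (0) and COX7B2 (0). Several are the tissue-restricted forms of complex IV subunits. COX4I2, COX6A2, COX7B2 and COX8C were at or near 0 counts in every library, whereas the widely expressed forms COX4I1, COX6A1, COX7B and COX8A were all measured well above the filter. A total of 0 over the 18 libraries allows up to 3 counts in that total, a bound for counting error only. COX7A1, the muscle form, passed the filter at 0.63 to 1.89 CPM per library, and was not called in any main comparison. NDUFA4L2, a hypoxia-induced paralog of NDUFA4, stayed between 0.20 and 0.93 CPM, and NDUFA4 itself had a log2 fold change of 0.00 in KO against WT. COX6B1 and COX7A2, the widely expressed partners of COX6B2 and COX7A1, had log2 fold changes of -0.02 and -0.05 in the same comparison and were not called.

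The 13 mitochondrial mRNAs took 1.28% to 2.05% of the counted reads and the 91 nuclear genes 0.566% to 0.653%. In WT the mitochondrial share was 1.39%, 1.62% and 1.60%, and the nuclear share 0.595% to 0.607%. In KO1 the mitochondrial share was 1.91%, 1.59% and 1.51%, and in KO2 1.66%, 1.70% and 1.61%. The mitochondrial shares of the KO and WT libraries overlapped, while the nuclear share was higher in each of the 6 KO libraries (0.614% to 0.653%) than in any WT library. In myrAKT the mitochondrial share was 1.66%, 1.497% and 2.05%, the widest spread of the 6 groups, and the nuclear share 0.566% to 0.601%, overlapping WT. After MK2206 the mitochondrial share was 1.56%, 1.28% and 1.43% in KO1 cells and 1.41%, 1.57% and 1.52% in KO2 cells. It overlapped that of the untreated cells in KO1 and lay below it in KO2. The nuclear share lay below that of the untreated cells in both lines. It was 0.613% to 0.632% in KO1+MK against 0.638% to 0.653% in KO1, and 0.597% to 0.610% in KO2+MK against 0.614% to 0.644% in KO2. Within a library the ratio of mitochondrial to nuclear reads ranged from 2.03 to 3.62, and its group means ran from 2.28 ± 0.263 in KO1+MK to 2.98 ± 0.570 in myrAKT, with 2.55 ± 0.185 in WT (SD, n = 3). The ratio was 2.59 ± 0.361 in KO1 and 2.63 ± 0.135 in KO2, and both overlapped WT. In RNA from whole cultures, a change in the number of mitochondrial transcripts per cell and a change in the mix of cells in the culture cannot be told apart.

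**Figure D1:**
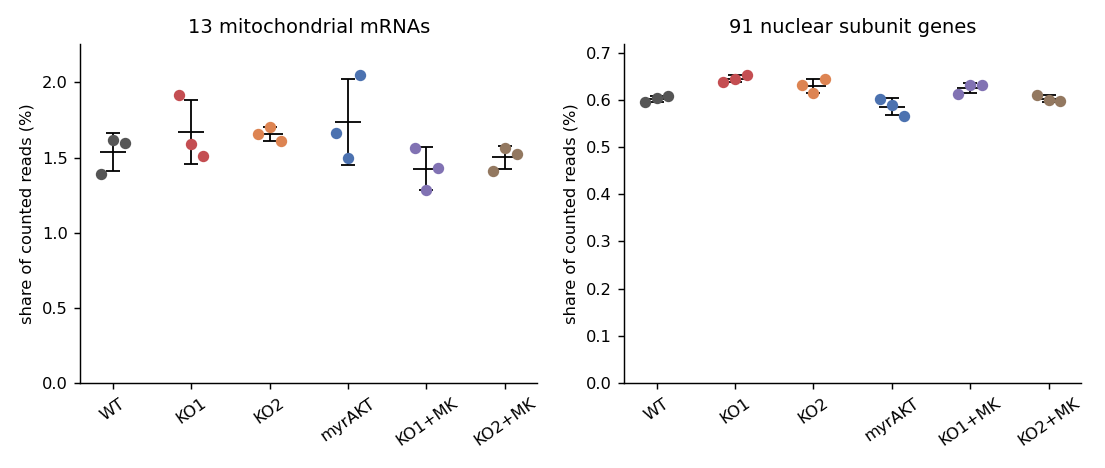
Share of counted reads (%, y axis) on the 13 mitochondrial mRNAs (left) and on the 91 nuclear subunit genes (right) in each of 18 libraries, by group. Points are libraries, black bars are mean ± SD of 3; the mitochondrial shares of WT overlap those of every other group, whereas the 6 KO libraries lie above the 3 WT libraries in the nuclear share.

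The GPS2 knockout cells were first compared with WT for the mitochondrial mRNAs, which moved in both directions. In KO against WT, 5 of 13 rose and 1 fell, beside 15.5% of all genes tested that were called higher and 16.6% called lower. MT-ND2, MT-CYB, MT-ND1, MT-CO3 and MT-ND3 rose and MT-CO1 fell. The median log2 fold change of the 13 was 0.42 and that of the 81 nuclear members 0.09, while the median of all genes was 0.00. Each gene counts equally in these medians. The ratio of mitochondrial to nuclear reads overlapped between the groups, with 2.61 ± 0.245 in KO (SD, n = 6) and 2.55 ± 0.185 in WT (SD, n = 3). Some markers of other cell types moved in this comparison as well. The 6 fibroblast markers summed to 34.2 to 38.4 CPM in WT and 25.6 to 26.4 CPM in KO, and both that were tested fell (COL1A1 -0.43, PDGFRB -0.58). COL1A2, COL3A1, DCN and LUM were below the filter in these cells, so the sum is nearly all COL1A1 and PDGFRB. The 5 markers of other epithelial cells summed to 73.2 to 82.01 CPM and 64.5 to 71.8 CPM, and of the 2 tested EPCAM fell (-0.41) and CLDN4 was not called (-0.17). KRT5, KRT14 and CLDN3 were below the filter. Their part in the results was not tested.

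MT-ND2 (chrM:4470-5511, plus strand, hg38) encodes a membrane subunit of complex I. Its level was 580.2, 715 and 693 CPM in the WT libraries, 1347, 1000.5 and 1018 CPM in KO1 and 1112, 1148 and 1063 CPM in KO2. All 6 KO libraries lay above the 3 WT libraries, with a log2 fold change of 0.73 ± 0.10 (SE, adjusted p = 5.0e-05). MT-CYB, the cytochrome b of complex III and its only mitochondrial subunit, was 488, 657 and 602 CPM in WT, 1148, 906 and 899 CPM in KO1 and 943, 951 and 907 CPM in KO2. Again no KO library overlapped WT (log2 fold change 0.70 ± 0.10, adjusted p = 8.5e-05). MT-CO3, a core subunit of complex IV, was 1276, 1693 and 1542 CPM in WT, 2492, 2182 and 2098 CPM in KO1 and 2225, 2159 and 2219.9 CPM in KO2, without overlap (log2 fold change 0.55 ± 0.08, adjusted p = 0.00012). MT-ND1, a further membrane subunit of complex I, was 644, 809 and 754 CPM in WT, 1358, 1074 and 1037 CPM in KO1 and 1107, 1157 and 1048 CPM in KO2 (0.60 ± 0.09, adjusted p = 0.00016). MT-ND3, another, was 253, 292 and 279 CPM in WT, 439.7, 331 and 358 CPM in KO1 and 389, 393 and 381 CPM in KO2 (0.46 ± 0.08, adjusted p = 0.00036). Neither overlapped WT. KO1 replicate 1 was the highest of the 6 KO libraries for all 5 of these mRNAs.

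MT-CO1 (chrM:5904-7445, plus strand), the catalytic subunit of complex IV, went the other way. It was 3849.8, 4378 and 4419 CPM in WT, 3776, 3417 and 3189 CPM in KO1 and 3393, 3367 and 3329 CPM in KO2, and the highest KO library lay below the lowest WT library (log2 fold change -0.32 ± 0.06, adjusted p = 0.00051). MT-CO2, the other copper-bearing subunit of complex IV, was not called (-0.13, adjusted p = 0.12), nor were MT-ND4 (-0.09) and MT-ND4L (-0.01). MT-ATP8 and MT-ATP6, the mitochondrial subunits of ATP synthase, missed the threshold with both lines pooled (log2 fold changes 0.47 and 0.42, adjusted p = 0.0023 and 0.0024) and passed it in each line by itself. MT-ND5 (0.18) and MT-ND6 (0.20) were not called. The strand setting of the counting is not given in the sources used here, so reads of MT-ND6 and of the opposite strand at that place cannot be told apart. The calls of MT-ND2, MT-CYB and MT-CO3 held without any one library. MT-ND1 missed the threshold without WT replicate 1 (adjusted p = 0.0014) or WT replicate 3 (0.0011), MT-ND3 without WT replicate 1, 2 or 3 (0.0036, 0.0011 and 0.0022), and MT-CO1 without WT replicate 2 (0.0076), WT replicate 3 (0.0082), KO1 replicate 2 (0.0011), KO1 replicate 3 (0.0011), KO2 replicate 1 (0.0013) or KO2 replicate 3 (0.0014).

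Neighbouring mitochondrial genes share bases, shown here because reads in them belong to 2 genes and the rule for such reads is not given in the sources used here. MT-ATP6 starts inside MT-ATP8 at chrM:8527-8572, and MT-ND4 starts inside MT-ND4L at chrM:10760-10766 (hg38, plus strand). The capitals mark the start codon of the downstream gene and the stop codon of the upstream gene.
MT-ATP8 and MT-ATP6: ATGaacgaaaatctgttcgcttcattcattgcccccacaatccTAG
MT-ND4L and MT-ND4: ATGcTAA
The first overlap is 46 bases, against 207 bases of MT-ATP8, and the second 7 bases, against 297 bases of MT-ND4L. Nuclear pseudogene copies of the mitochondrial genes held reads equal to 1.62% to 1.87% of those on the 13 mRNAs. Of these copies MTND2P28 rose in KO against WT (log2 fold change 0.60 ± 0.08, adjusted p = 4.9e-05), as MT-ND2 did, and whether reads were split between them was not tested.

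The make-up of the mitochondrial mRNAs was taken as each gene's share of the reads on all 13. The share of MT-CO1 was 28.1, 27.02 and 27.8% in WT, 19.1, 20.98 and 20.4% in KO1 and 20.1, 19.7 and 20.3% in KO2. It was the largest share in every library, and all KO libraries lay below all WT libraries. The share of MT-ND2 was 4.23, 4.41 and 4.35% in WT, 6.81, 6.14 and 6.52% in KO1 and 6.59, 6.71 and 6.48% in KO2, again without overlap. MT-CYB went from 3.798% ± 0.249 (SD, n = 3) of the mitochondrial reads in WT to 5.63% ± 0.117 in KO (SD, n = 6), MT-CO3 from 9.81% ± 0.583 to 13.1% ± 0.416, MT-CO2 from 11.01% ± 0.168 to 9.13% ± 0.306 and MT-ND4 from 14.9% ± 0.382 to 12.7% ± 0.342. MT-ND5, with 11.1% ± 0.1800 in WT and 11.4% ± 0.289 in KO, overlapped between the groups. A fit with the total of the 13 mRNAs as their library size, chosen after seeing the data, called 7 of them higher and 3 lower in KO against WT, beside 15.6% and 16.6% of all genes in that fit. The 7 were MT-ND2 (0.59 ± 0.04 (SE), adjusted p = 3.6e-07), MT-CYB (0.57), MT-ND1 (0.46), MT-CO3 (0.42), MT-ATP8 (0.33), MT-ND3 (0.32) and MT-ATP6 (0.29). The 3 were MT-CO1 (-0.46 ± 0.04, adjusted p = 1.3e-06), MT-CO2 (-0.27) and MT-ND4 (-0.23). Such shares sum to the whole, so that a rise in some forces a fall in others.

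**Figure D2:**
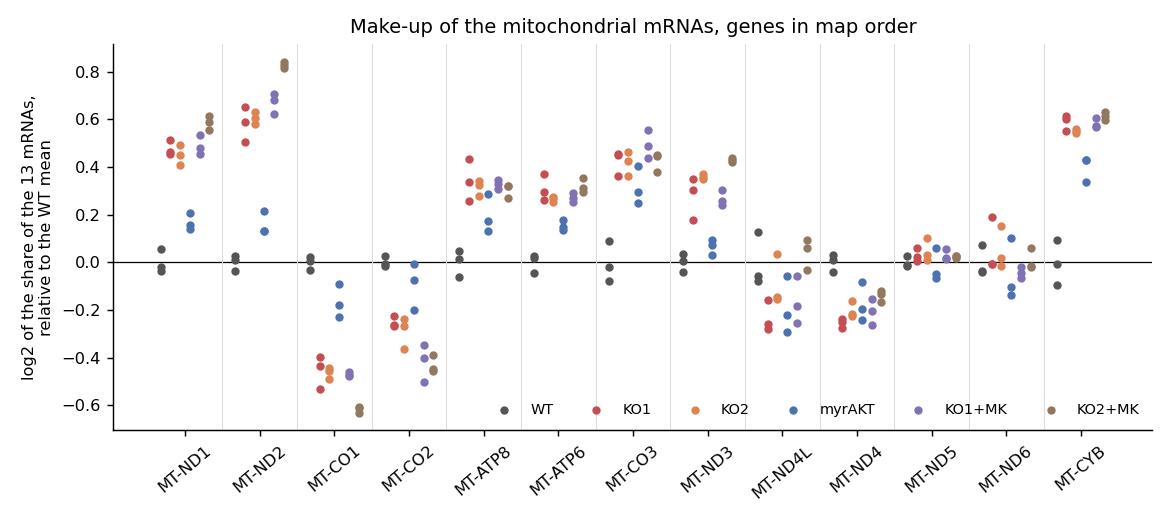
Each gene's share of the reads on the 13 mitochondrial mRNAs, as log2 relative to the WT mean (y axis), for 3 libraries of each of 6 groups, with genes in their order on the mitochondrial map. In the KO groups, treated or not, MT-CO1 and MT-CO2 lie below 0 and MT-ND1, MT-ND2, MT-ATP8, MT-ATP6, MT-CO3, MT-ND3 and MT-CYB above it, while MT-ND5 lies slightly above 0 and MT-ND6 on both sides of it.

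Among the 81 nuclear members tested, 7 rose and 0 fell in KO against WT, beside the 15.5% and 16.6% of all genes. The 7 became 3 without WT replicate 1 and 12 without KO2 replicate 2. At an unadjusted p under 0.05, 35 were higher and 8 lower, beside 31.4% and 32.5% of all genes. With DESeq2 21 were called higher and 0 lower, beside 20.7% and 20.8%. Changes were small, with log2 fold changes from -0.32 to 0.56, and 61 of 81 were above 0. By complex, 3 of 36 members of complex I rose (median log2 fold change 0.10), 0 of 4 of complex II (-0.04), 1 of 10 of complex III (0.11), 0 of 13 of complex IV (-0.02) and 2 of 17 of complex V (0.13, with 15 of 17 above 0). The complex IV median was thus near 0 among its nuclear subunits, while among its mitochondrial ones MT-CO3 rose and MT-CO1 fell.

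CYCS (chr7:25118656-25125260, minus strand), the electron carrier between complexes III and IV that also triggers apoptosis when released, rose most. It was 81.5, 87.4 and 86.7 CPM in WT, 128, 119.9 and 131 CPM in KO1 and 129, 129 and 128 CPM in KO2. The lowest KO library, KO1 replicate 2, was well above the highest WT library, and the log2 fold change was 0.56 ± 0.04 (SE, adjusted p = 5.1e-07). CYC1, the heme-bearing subunit of complex III that hands electrons to cytochrome c, was 128, 132 and 133 CPM in WT, 171, 162 and 175 CPM in KO1 and 162, 156 and 167 CPM in KO2. The groups did not overlap (0.31 ± 0.04, adjusted p = 3.5e-05). NDUFV3 (chr21:42879644-42913304, plus strand), an accessory subunit of the NADH-oxidising part of complex I, was 39.9, 39.2 and 38.6 CPM in WT, 52.8, 51.7 and 53.8 CPM in KO1 and 50.4, 47.6 and 50.3 CPM in KO2, likewise without overlap (0.36 ± 0.04, adjusted p = 2.8e-05). These 3 calls held without any one library.

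The other 4 rises were each lost without at least 1 of the libraries. NDUFA11, an accessory subunit of the membrane arm of complex I, was 13.1, 12.98 and 12.9 CPM in WT, 19.5, 16.3 and 18.9 CPM in KO1 and 16.3, 16.3 and 16.3 CPM in KO2 (0.39 ± 0.07, adjusted p = 0.00072). ATP5MF, the f subunit of ATP synthase, was 48.1, 51.4 and 53.9 CPM in WT, 66.3, 64.3 and 64.7 CPM in KO1 and 61.8, 58.7 and 65.9 CPM in KO2 (0.30 ± 0.05, adjusted p = 0.00034). All KO libraries of both genes were above all WT libraries. ATP5PB, the peripheral-stalk b subunit, had 223 ± 5.89 CPM in WT and 268 ± 11.6 CPM in KO (0.24 ± 0.04, adjusted p = 0.00037), and NDUFA12, a further accessory subunit of complex I, 50.9 ± 1.13 and 58.6 ± 1.502 CPM (0.19 ± 0.04, adjusted p = 0.00099). The call of NDUFA11 was lost without WT replicate 1, 2 or 3 (adjusted p = 0.0030, 0.0028 and 0.0030), KO1 replicate 3 (0.0014) or KO2 replicate 3 (0.0010, just above the threshold), that of ATP5MF without WT replicate 1 (0.0018) or 2 (0.0014), and that of ATP5PB without WT replicate 1 (0.0018) or 3 (0.0012). NDUFA12 missed the threshold without any one of the 9 libraries, with adjusted p from 0.0010 to 0.0043.

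Promoters of CYCS and NDUFV3, the rises that held without any one library and have a promoter in the RefSeq table, are printed to show what a motif search found. Capitals mark the core GCATGCGC of the site bound by NRF1, a factor known for respiratory gene promoters, searched on both strands. The windows run from 250 bases before to 50 after the start of the gene (RefSeq, GRCh38.p14), at chr7:25125211-25125510 on the minus strand for CYCS and chr21:42893059-42893358 on the plus strand for NDUFV3.
CYCS: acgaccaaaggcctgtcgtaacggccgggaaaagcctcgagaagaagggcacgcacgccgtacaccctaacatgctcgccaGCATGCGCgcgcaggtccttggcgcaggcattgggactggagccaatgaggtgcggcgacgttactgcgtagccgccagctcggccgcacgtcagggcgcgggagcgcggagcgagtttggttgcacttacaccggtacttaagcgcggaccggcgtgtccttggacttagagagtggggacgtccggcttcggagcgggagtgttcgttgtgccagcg
NDUFV3: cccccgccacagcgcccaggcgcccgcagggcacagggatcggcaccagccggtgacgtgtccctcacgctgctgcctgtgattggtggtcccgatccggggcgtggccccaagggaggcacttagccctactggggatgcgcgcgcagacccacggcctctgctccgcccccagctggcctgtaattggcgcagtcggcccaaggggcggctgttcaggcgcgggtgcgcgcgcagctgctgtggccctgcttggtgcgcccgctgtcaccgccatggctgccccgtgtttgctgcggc
The CYCS window held the core 169 bases before the start, and these letters were not in the NDUFV3 window. A promoter was matched for 65 of the 81 nuclear members tested. The NRF1 core was in 14 of those 65 (21.5%), against 894 of 27305 promoters of all genes (3.27%), and the core CCGGAAGT of ETS factors such as GABP in 10 of 65 (15.4%), against 1211 of 27305 (4.44%). The 2 cores are different runs of letters and were counted separately, so that a promoter can hold both. Of the 5 members called higher in KO that had a promoter, 1 held the NRF1 core and 0 the ETS core. A match is a run of letters and does not show that a factor binds there.

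**Figure D3:**
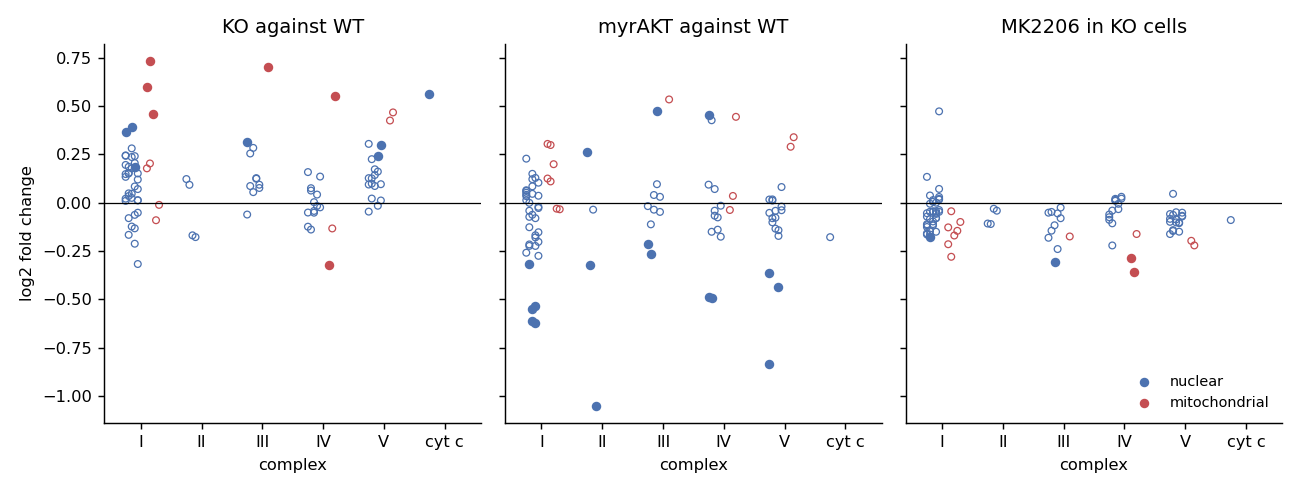
Log2 fold change (y axis) of each tested subunit gene by complex (x axis) in KO against WT, myrAKT against WT and MK2206-treated against untreated KO cells. Blue is nuclear and red mitochondrial, and filled points passed an adjusted p of 0.001; in KO the called nuclear points are all above 0, in myrAKT 14 of 17 are below 0, and after MK2206 most points lie just under 0.

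In each line alone more nuclear members passed. In KO1 against WT 27 rose and 2 fell (20.5% and 21.3% of all genes), and in KO2 against WT 12 rose and 5 fell (20.8% and 22.2%). Leaving out single libraries gave 17 to 23 higher and 0 to 3 lower in KO1 (17 without KO1 replicate 3, and 0 lower without KO1 replicate 1 and 1 without WT replicate 2 or KO1 replicate 2), and 3 to 10 higher and 4 to 5 lower in KO2 (6 higher without WT replicate 3, 4 without KO2 replicate 1 and 3 without KO2 replicate 3). The mitochondrial counts were 7 higher and 1 lower in each line. In KO1 they were 4 and 0 with DESeq2 (21% and 20.6% of all genes), 4 and 0 without WT replicate 3, and 5 and 2 without KO1 replicate 1. The single call lower was lost without WT replicate 2, KO1 replicate 2 or KO1 replicate 3 in KO1 and without WT replicate 3 in KO2, where 2 were lower without WT replicate 1. Both comparisons use the same WT libraries. In KO1 8 of 17 members of ATP synthase rose, among them the c-ring subunit ATP5MC1 with 70.6, 69.6 and 68.1 CPM in WT and 90.99, 89.9 and 97.02 CPM in KO1 (0.40 ± 0.04, adjusted p = 3.5e-07). In KO2 ATP5MC1 was 79.4, 78.1 and 85.5 CPM (0.22 ± 0.04, adjusted p = 0.00022). The 5 nuclear members that fell in KO2, NDUFV1, NDUFS8, SDHD, ATP5MG and COX8A, all lie on chromosome 11, where the median log2 fold change of all tested genes in KO2 was -0.25, against -0.05 to 0.16 on the other 22 chromosomes, and 42.6% of the genes were called lower. Of the 7 tested members on chromosome 11, NDUFC2 rose in KO2 (0.28, adjusted p = 0.00091) and NDUFS3 was not called (0.17). Whether that regional shift accounts for them was not tested. In KO2 all 4 RNAs read as signs of library composition fell against WT, MT-RNR1 (-1.11, adjusted p = 0.00029) and MT-RNR2 (-1.04, adjusted p = 0.00034), which the ribosomal depletion targets, and the nuclear-retained NEAT1 (-0.86) and MALAT1 (-0.54), while in KO1 NEAT1 (-0.38) and MALAT1 (-0.30) fell and the rRNAs were not called. The 4 summed to 2197 to 2614 CPM in WT, 1794 to 2144 CPM in KO1 and 1488 to 1715 CPM in KO2, and their part in the results was not tested.

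KO1 and KO2 were also compared directly, and 7 nuclear members differed, 6 higher and 1 lower in KO1, beside 7.06% and 5.54% of all genes, while 0 of 13 mitochondrial members were called (edgeR, 0 also at an unadjusted p under 0.05, where 22.4% of all genes were higher and 21.2% lower). ATP5MG, the g subunit of ATP synthase, was 122, 121 and 127 CPM in KO1 and 95.8, 94.8 and 96.1 CPM in KO2, with WT at 109, 115 and 110.4 CPM. WT thus lay between the lines (KO1 against KO2 0.36 ± 0.03, adjusted p = 1.2e-07). SDHD, a membrane anchor of complex II, was 64.2, 68.7 and 65.5 CPM in KO1 and 54.2, 53.2 and 52.9 CPM in KO2, where KO1 overlapped WT (65.6, 64.7 and 70.1 CPM) and KO2 did not (KO1 against KO2 0.30 ± 0.04, adjusted p = 1.1e-05). The other members higher in KO1 were ATP5F1D (0.33), NDUFV1 (0.31), NDUFS8 (0.28) and NDUFA9 (0.26), and UQCRB was lower (-0.26). ATP5MG, SDHD, NDUFV1 and NDUFS8 lie on chromosome 11. There the other tested genes had a median log2 fold change of 0.17 between the lines, and 31.0% were called higher in KO1. UQCRB lies on chromosome 8, where 13.1% were called lower. Whether these regional shifts account for the members was not tested. Within complex II, SDHC, the other membrane anchor, was 80.6, 78.5 and 76.5 CPM in WT, 66.7, 67.98 and 69.4 CPM in KO1 and 72.2, 73.7 and 74.6 CPM in KO2, and was called lower in KO1 alone (-0.23 ± 0.04, adjusted p = 6.8e-05; both lines -0.17, adjusted p = 0.0052). SDHA was 185, 186 and 187 CPM in WT, 208, 203 and 210.0 CPM in KO1 and 208, 195 and 206 CPM in KO2, and SDHB 72.8, 71.9 and 75.9 CPM, 81.1, 84.7 and 86.4 CPM and 76.8, 72.7 and 74.8 CPM. Both were called higher in KO1 alone (0.14 and 0.17, adjusted p = 0.00084 and 0.00093). The difference between the lines did not pass the test for SDHA, SDHB or SDHC (adjusted p = 0.73, 0.0018 and 0.0088).

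**Figure D4:**
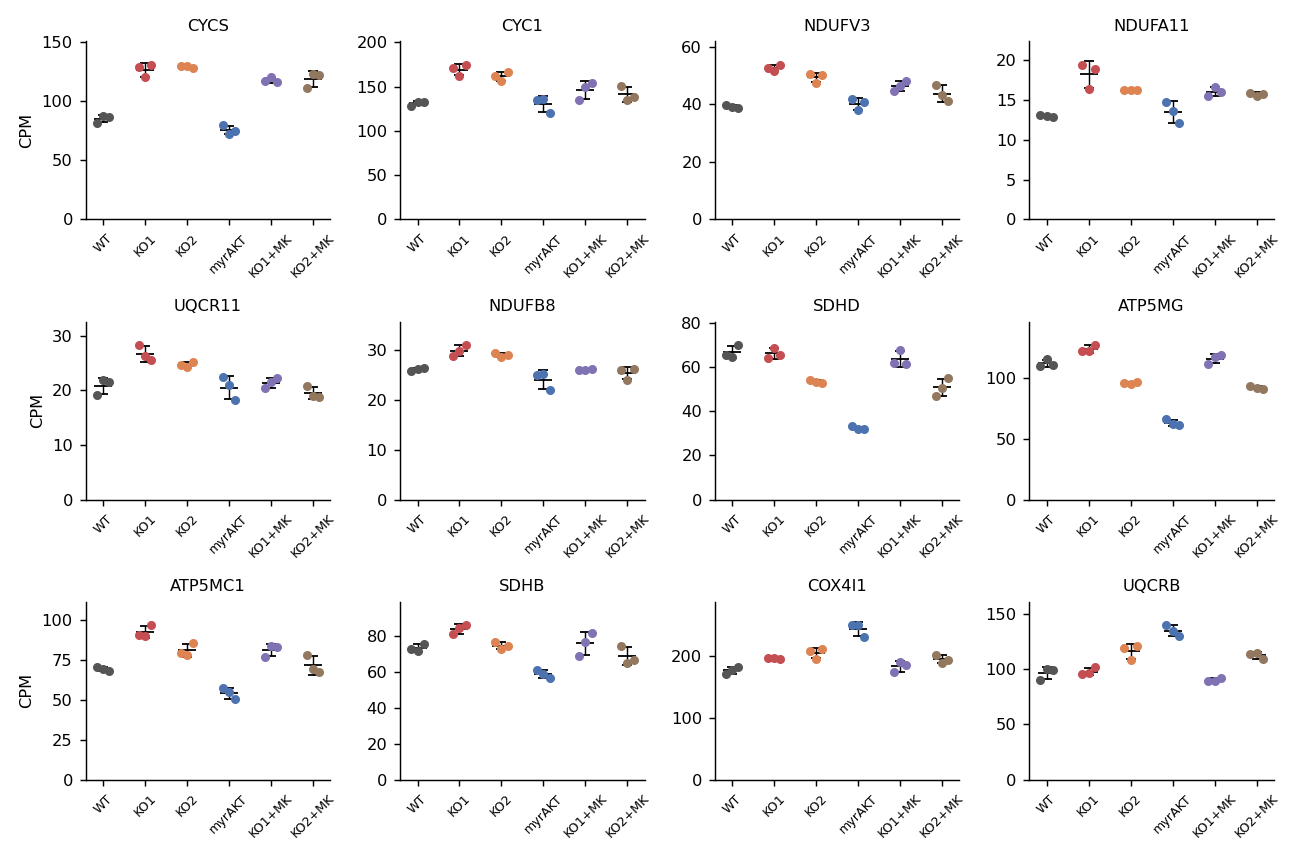
Level in CPM (y axis, from 0) of 12 nuclear subunit genes in each of 18 libraries, by group. Points are libraries and bars mean ± SD of 3; CYCS, CYC1, NDUFV3 and NDUFA11 are higher in all KO libraries than in WT, and SDHD and ATP5MG are lowest in myrAKT and lower in KO2 than in KO1.

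In MB231-myrAKT cells 3 of the 81 nuclear members rose and 14 fell against WT. The share that fell, 17.3%, equalled that of all genes tested (17.3%), and 12.7% of all genes rose. The members had log2 fold changes from -1.05 to 0.47 and a median of -0.05 (0.02 for all genes). Scaled to library totals, the median became -0.01, with 39 in place of 27 of 81 members above 0. The falls came from all 5 complexes, with 5 of 36 members of complex I, 2 of 4 of complex II, 2 of 10 of complex III, 2 of 13 of complex IV and 3 of 17 of complex V. Of the 7 tested members on chromosome 11, 6 fell (median -0.55), and of the 74 others 3 rose and 8 fell (median -0.04). The whole of chromosome 11 was lower in myrAKT, with a median log2 fold change of -0.54 over 859 genes, of which 574 (66.8%) were called lower, against medians of -0.08 to 0.27 on the other 22 chromosomes. DNA copy number was not measured. The 6 fibroblast markers summed to 16.2 to 19.4 CPM in myrAKT, below WT, with PDGFRB at -1.73 and COL1A1 at -0.51, both called. The 5 other epithelial markers summed to 82.1 to 88.5 CPM, where CLDN4 rose (0.33) and EPCAM fell (-1.90). The 4 RNAs of library composition summed to 1758 to 2251 CPM, overlapping WT (2197 to 2614 CPM), and all had log2 fold changes below 0 (median -0.53) with 0 of 4 called by edgeR and 4 lower at an unadjusted p under 0.05. The part of these in the results was not tested.

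SDHD (chr11:112086824-112120016, plus strand) fell most. It was 65.6, 64.7 and 70.1 CPM in WT and 33.1, 32.02 and 32.1 CPM in myrAKT (-1.05 ± 0.05 (SE), adjusted p = 4.9e-10), and the tested genes within 5 Mb of it had a median of -0.76. ATP5MG was 65.8, 61.6 and 61.1 CPM in myrAKT (-0.84 ± 0.04, adjusted p = 1.8e-09), with a median of -0.83 around it. Both lie on chromosome 11, and neither overlapped WT. NDUFS8, a core iron-sulfur subunit of complex I, was 89.1, 90.8 and 90.9 CPM in WT and 61.01, 60.3 and 56.7 CPM in myrAKT (-0.61 ± 0.04, adjusted p = 2.4e-08, neighbours -0.49). NDUFS3, another core subunit, was 40.8, 42.3 and 40.9 CPM in WT and 29.6, 28.9 and 26.7 CPM in myrAKT (-0.55 ± 0.05, adjusted p = 6.2e-07, neighbours -0.54). NDUFV1, which binds the flavin that accepts electrons from NADH, and COX8A, a small subunit of complex IV, fell to a similar extent (-0.53 and -0.49, neighbours -0.47 and -0.49). NDUFC2 was the chromosome 11 member not called (-0.28 ± 0.06, adjusted p = 0.0021). Calls of these 6 genes held without any one library.

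On other chromosomes too, several members moved like the genes around them. NDUFS4, an accessory subunit of complex I on chromosome 5, was 44.4, 45.99 and 43.9 CPM in WT and 28.6, 30.5 and 28.6 CPM in myrAKT (-0.62 ± 0.05, adjusted p = 1.2e-07), with neighbours at -0.52. COX7C, also on chromosome 5, fell by 0.49 on the log2 scale with neighbours at -0.39. The 3 rises had neighbours above 0 as well. UQCRB, a small subunit of complex III on chromosome 8, was 90.1, 100.1 and 99.4 CPM in WT and 139.9, 134 and 129.9 CPM in myrAKT (0.47 ± 0.05, adjusted p = 1.8e-06, neighbours 0.36). COX4I1, the widely expressed subunit 4 of complex IV on chromosome 16, was 171, 177 and 182 CPM in WT and 249.7, 249.7 and 229.9 CPM in myrAKT (0.45 ± 0.05, adjusted p = 1.5e-06, neighbours 0.50). SDHA, the flavoprotein of complex II on chromosome 5, was 185, 186 and 187 CPM in WT and 229, 228 and 215 CPM in myrAKT (0.26 ± 0.04, adjusted p = 0.00010, neighbours 0.29), and missed the threshold without myrAKT replicate 2 (adjusted p = 0.0015). Across the 81 nuclear members, which share libraries and in part neighbours, the log2 fold change and the median of 16 to 241 genes within 5 Mb had a Pearson r of 0.82 and a Spearman rho of 0.48. The SD of the members' log2 fold changes was 0.249, and 0.143 after each neighbour median was subtracted. In KO against WT the same Pearson r was 0.12, and subtraction did not narrow the spread (SD 0.149 before and 0.166 after). Between KO1 and KO2 it was 0.57, with an SD of 0.113 before and 0.0974 after.

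**Figure D5:**
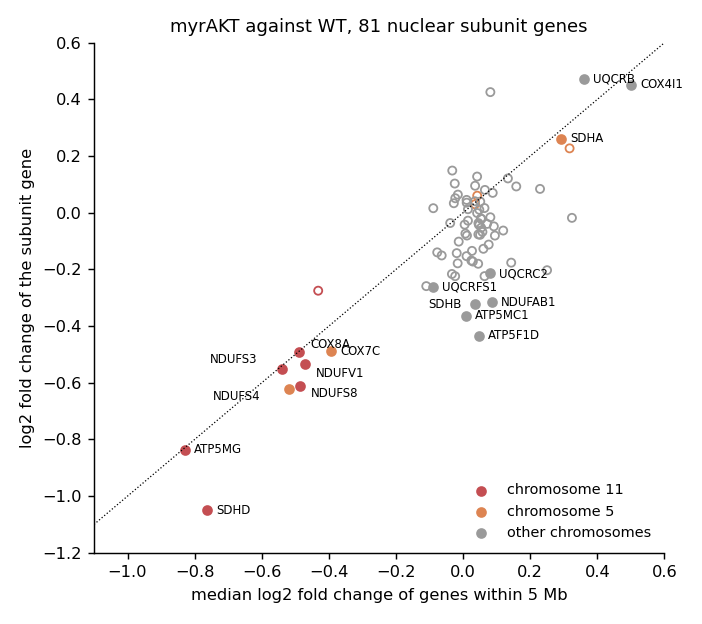
Log2 fold change in myrAKT against WT of each of 81 nuclear subunit genes (y axis) against the median log2 fold change of tested genes within 5 Mb of it (x axis). Filled points passed an adjusted p of 0.001, colours give chromosome 11, chromosome 5 and all others, and the dotted line marks equal values; the chromosome 11 members lie low on both axes, while ATP5F1D, ATP5MC1, SDHB, NDUFAB1, UQCRFS1 and UQCRC2 lie below the line with neighbours near 0.

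In myrAKT 6 members fell while the genes around them had medians between -0.09 and 0.09. ATP5F1D, the delta subunit of the F1 part of ATP synthase, was 42.7, 45.2 and 47.6 CPM in WT and 32.7, 36.1 and 31.99 CPM in myrAKT (-0.43 ± 0.06, adjusted p = 2.4e-05). ATP5MC1 was 57.2, 55.1 and 50.4 CPM in myrAKT (-0.36 ± 0.05, adjusted p = 1.7e-05), below every WT and every KO library. SDHB, the iron-sulfur subunit of complex II, was 72.8, 71.9 and 75.9 CPM in WT and 61.3, 59.1 and 56.7 CPM in myrAKT (-0.32 ± 0.04, adjusted p = 2.6e-05). NDUFAB1, the mitochondrial acyl carrier protein, UQCRFS1, the Rieske iron-sulfur protein, and UQCRC2, a core protein of complex III, had log2 fold changes of -0.32, -0.26 and -0.21 (adjusted p = 0.00029, 0.00036 and 0.00047). The calls of ATP5F1D, ATP5MC1 and SDHB held without any one library. That of NDUFAB1 was lost without WT replicate 2 (adjusted p = 0.0018), WT replicate 3 (0.0025), myrAKT replicate 2 (0.0018) or myrAKT replicate 3 (0.0012), that of UQCRFS1 without WT replicate 2 (0.0031), WT replicate 3 (0.0017) or myrAKT replicate 3 (0.0014), and that of UQCRC2 without any library except myrAKT replicate 1 (0.0016 to 0.0043). CYCS and CYC1 were not called in myrAKT (log2 fold changes -0.18 and -0.02, adjusted p = 0.0057 and 0.78).

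Of the 13 mitochondrial mRNAs 0 were called in myrAKT against WT by edgeR or by DESeq2 (14.2% of all genes higher and 18.5% lower with the latter). At an unadjusted p under 0.05, 7 were higher and 0 lower, beside 29.1% and 30.1% of all genes. Without WT replicate 2 or myrAKT replicate 2, 2 were called higher, and without myrAKT replicate 3, 1 lower. In 1 fit of all 18 libraries 2 were called higher, without the filter 3, and with the replicate number as a block 1. The largest log2 fold changes were those of MT-CYB and MT-CO3. MT-CYB was 488, 657 and 602 CPM in WT and 836, 696 and 1005 CPM in myrAKT (0.53 ± 0.12, adjusted p = 0.0017), and MT-CO3 1276, 1693 and 1542 CPM and 2124, 1745 and 2291 CPM (0.44 ± 0.10, adjusted p = 0.0023). Neither overlapped WT, and myrAKT replicate 3 was the highest for both. MT-CO1 was 3981, 3759.7 and 4624 CPM, overlapping WT (-0.04, adjusted p = 0.71). With the total of the 13 mRNAs as library size, the fit chosen after seeing the data, MT-CYB (0.40 ± 0.05, adjusted p = 1.9e-05) and MT-CO3 (0.32 ± 0.06, adjusted p = 0.00028) passed and 0 of 13 fell, beside 12.8% and 17.4% of all genes. The share of MT-CO1 was 24.4, 25.9 and 23.5% of the mitochondrial reads in myrAKT, below every WT library but not called lower in that fit.

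After MK2206 for 4 h in the KO cells few subunit genes were called. Of the nuclear members 0 rose and 2 fell and of the mitochondrial ones 0 rose and 2 fell, beside 12.8% of all genes that rose and 8.75% that fell. The median log2 fold change was -0.07 for the nuclear and -0.18 for the mitochondrial members (0.00 for all genes), with 66 of 81 and 13 of 13 below 0. At an unadjusted p under 0.05, 28 nuclear members were lower and 2 higher, and 9 mitochondrial members were lower and 0 higher, beside 25.3% of all genes lower and 28% higher. With DESeq2 11 nuclear members were called lower and 1 higher, beside 13.8% and 15.8%. The 4 composition RNAs summed to 2162 to 3081 CPM in KO1+MK and 1622 to 2255 CPM in KO2+MK. NEAT1 rose in each line (1.00 in KO1 and 0.87 in KO2), and MT-RNR1 and MT-RNR2, not called, were at -1.40 and -2.07 in KO1 and 1.14 and 1.08 in KO2. The fibroblast markers summed to 27.5 to 29.7 CPM in treated cells, with COL1A1 called higher (0.39), and the other epithelial markers to 50.98 to 61.1 CPM with 0 of 2 called. The part of these in the results was not tested.

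MT-CO2 was 1812, 1534 and 1435 CPM in KO1 and 1184, 1112 and 1201 CPM in KO1+MK, and 1542, 1463 and 1533 CPM in KO2 and 1194, 1251 and 1221 CPM in KO2+MK. All treated libraries lay below all untreated ones in both lines (-0.36 ± 0.05 (SE), adjusted p = 5.1e-05). MT-CO1, already lower in KO than in WT, was 3026, 2577 and 2860.2 CPM in KO1+MK and 2570.5, 2761 and 2747 CPM in KO2+MK, below the 3189 CPM of the lowest untreated KO library (-0.29 ± 0.05, adjusted p = 0.00024). In KO2 alone the change of MT-CO1 passed (-0.30, adjusted p = 2.2e-05), and in KO1 alone it did not (-0.27, adjusted p = 0.0057). MT-ND2 was not called (-0.04, adjusted p = 0.70). In each line alone MT-CO2 and UQCR11 fell in KO1 (1 mitochondrial and 1 nuclear member, beside 8.26% of all genes) and MT-CO1, MT-CO2 and UQCR11 in KO2 (2 and 1, beside 8.78%). In KO1 alone 0 mitochondrial members were lower without KO1 replicate 2 or KO1+MK replicate 2 and 6 without KO1+MK replicate 1, and in KO2 alone 5 nuclear members were lower without KO2+MK replicate 1. With the total of the 13 mRNAs as library size, 0 of 13 were called in both lines pooled, with 5 of 13 below 0 and MT-ND2 at 0.16 (adjusted p = 0.0065), and 0 fell in KO1 (8.34% of all genes in that fit) or in KO2 (8.78%). In that fit the log2 fold changes of MT-CO2 and MT-CO1 were -0.15 (adjusted p = 0.0016) and -0.08 (adjusted p = 0.094). In KO1+MK the share of MT-CO1 in the mitochondrial reads was 19.9, 20.1 and 19.8% and that of MT-ND2 7.07, 6.67 and 6.94%, and both overlapped untreated KO1 (MT-CO1 19.1, 20.98 and 20.4%, MT-ND2 6.81, 6.14 and 6.52%). In KO2+MK the share of MT-CO1 was 18.1, 17.8 and 18.1%, below untreated KO2 (20.1, 19.7 and 20.3%), and that of MT-ND2 7.62, 7.69 and 7.77%, above it (6.59, 6.71 and 6.48%). MT-ND2 was the 1 mRNA called higher in KO2 in that fit (0.22 ± 0.03, adjusted p = 7.6e-05, beside 13.1% of all genes), while MT-CO1 was not called (-0.15, adjusted p = 0.0018). Whether the lines differ in this was not tested in that fit.

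UQCR11 (chr19:1597169-1605473, minus strand), a small subunit of complex III, was 28.4, 26.3 and 25.6 CPM in KO1 and 20.4, 21.5 and 22.3 CPM in KO1+MK, and 24.7, 24.2 and 25.2 CPM in KO2 and 20.9, 19.00 and 18.8 CPM in KO2+MK. All 6 treated libraries lay below all 6 untreated ones (-0.31 ± 0.05, adjusted p = 0.00017), and 3 of the 6 lay within the range of WT, which was 19.2, 21.9 and 21.5 CPM. The pooled call held without any one library. In each line alone it passed as well (-0.30 and -0.32), but there 0 nuclear members were lower without any one library other than KO1+MK replicate 1 and KO2+MK replicate 1. NDUFB8, an accessory subunit of the membrane arm of complex I, was 28.8, 29.7 and 31.01 CPM in KO1, 25.9, 25.9 and 26.1 CPM in KO1+MK, 29.3, 28.6 and 29.04 CPM in KO2 and 25.9, 23.9 and 26.1 CPM in KO2+MK, without overlap between treated and untreated cells (-0.18 ± 0.03, adjusted p = 0.00065). Its call was lost without any one of the 6 untreated libraries (adjusted p = 0.0012 to 0.0019), KO1+MK replicate 2 (0.0011) or KO2+MK replicate 2 (0.0011), and 48.5% of its exon bases are shared with HIF1AN and another annotated gene, between which reads could be split. CYCS was 128 ± 3.904 CPM in KO and 118 ± 4.43 CPM in treated cells (SD, n = 6; -0.09 ± 0.03, adjusted p = 0.035), and CYC1 165 ± 6.71 and 144 ± 8.46 CPM (-0.18 ± 0.04, adjusted p = 0.0014), neither of them called. NDUFV2, a core flavoprotein subunit of complex I, had the largest positive value without passing (0.47 ± 0.11, adjusted p = 0.0023). The MK2206 effect differed between KO1 and KO2 for 0 of 94 members (edgeR, difference tested directly, beside 0.0128% of all genes called higher and 0% lower). At an unadjusted p under 0.05, 2 members were lower and 0 higher, beside 3.3% and 4.73% of all genes.

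A list of genes that maintain mitochondrial DNA and handle its RNA was read beside the subunits. Of its 33 members, all tested, 15 rose and 2 fell, with a median log2 fold change of 0.27, in KO against WT, beside 15.5% and 16.6% of all genes. TFAM, which packages mitochondrial DNA and starts its transcription, was 141 ± 4.53 CPM in WT and 185 ± 3.45 CPM in KO (0.38 ± 0.03, adjusted p = 2.2e-06). The largest rises were those of TEFM, the elongation factor of the mitochondrial RNA polymerase (0.53), and FASTKD5, needed to process mitochondrial mRNAs not bounded by tRNAs (0.51). TFB1M, which methylates the small mitochondrial rRNA, fell (-0.51), as did TOP1MT, a mitochondrial topoisomerase (-0.30). The polymerase itself, POLRMT, was not called (0.06, adjusted p = 0.45). In myrAKT 0 of the 33 rose and 4 fell (median -0.13; 12.7% and 17.3% of all genes), led by the exonuclease REXO2 on chromosome 11 (-0.95) and PTCD2 on chromosome 5 (-0.59), and TFAM had -0.08 (adjusted p = 0.18). After MK2206 2 of the 33 rose and 9 fell (median -0.12; 12.8% and 8.75% of all genes), the falls led by the helicase TWNK (-0.47) and by TRMT10C, a subunit of mitochondrial RNase P (-0.37). POLRMT was among them (-0.36 ± 0.05, adjusted p = 9.0e-05), and TFAM was not called (0.04, adjusted p = 0.39).

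Assembly factors numbered 42 tested. In KO 10 rose and 2 fell (median 0.13), beside 15.5% and 16.6% of all genes, with the largest changes in SDHAF4, a complex II factor (-1.12), and COA7, a complex IV factor (0.77). In myrAKT 2 rose and 9 fell (median -0.09), beside 12.7% and 17.3%, led by NDUFAF2 on chromosome 5 (-0.90) and UQCC3 on chromosome 11 (-0.83). After MK2206 2 rose and 6 fell (median -0.05), beside 12.8% and 8.75%, with COX19 (0.45) and COA7 (-0.43) furthest from 0.

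Among 12 tested nuclear regulators of respiratory genes, 3 rose and 1 fell in KO against WT, beside 15.5% and 16.6% of all genes. PPRC1, a coactivator of the PGC-1 family, was 119 ± 1.24 CPM in WT and 171 ± 11.7 CPM in KO (0.51 ± 0.05, adjusted p = 1.1e-05), HCFC1 had 0.51 and NRF1 0.40 ± 0.06 (adjusted p = 8.2e-05). PPARGC1A, the best-known member of that family, fell from 11.6 ± 0.155 to 8.95 ± 0.254 CPM (-0.40 ± 0.05, adjusted p = 7.2e-05). PPARGC1B (0.26), ESRRA (-0.46) and GABPA (-0.19) were not called (adjusted p = 0.049, 0.0015 and 0.020). In myrAKT, where 12.7% of all genes rose and 17.3% fell, 1 rose, GABPB2 (0.81), and 3 fell, MYC (-1.09), ESRRA on chromosome 11 (-0.95) and PPARGC1B on chromosome 5 (-0.73), while PPARGC1A (0.05), PPRC1 (-0.07), NRF1 (0.22) and GABPA (0.19) were not called. After MK2206 1 rose and 4 fell, beside 12.8% and 8.75% of all genes. All members of the PGC-1 family fell, PPARGC1B by 0.93, PPRC1 by 0.85 and PPARGC1A by 0.35 on the log2 scale (adjusted p = 6.1e-06, 1.5e-07 and 0.00026). MYC fell as well (-0.62), GABPA rose (0.34, adjusted p = 0.00011), and NRF1 (0.08) and ESRRA (-0.08) were not called.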

How the data were processed

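Total RNA was depleted of ribosomal RNA, made into libraries, pooled and sequenced in 2 runs. The deposited values are counts, whole numbers of reads per Ensembl gene, which the authors had neither normalized nor filtered. The authors used FastQC, Trim Galore, HISAT2 on hg38 and featureCounts, per the labels; versions, annotation, strand setting and the treatment of reads that touch several genes are not given in the sources used here. Reads that fit nuclear copies of mitochondrial genes, and reads in overlapping genes, could therefore move counts between genes.

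The labels gave the groups. Positions (for 56948 of 57448 genes) and exon lengths came from GENCODE release 44. An exon length is the union of the exons of all annotated transcripts of a gene. The 15587 genes that reached 1 CPM in 3 or more of the 18 libraries were tested with edgeR 4.0.16 in R 4.3.3 (TMM normalization, two-sided quasi-likelihood test, Benjamini-Hochberg adjustment over all genes tested), pairwise and without covariates. The comparisons were KO against WT, myrAKT against WT and MK2206 in KO cells, each line by itself, one line against the other, and the line difference in the MK2206 effect. DESeq2 1.42.0, other scalings and filters and leaving out each library were alternatives. CPM values are TMM-normalized, and SE is the standard error implied by the quasi-likelihood F statistic. Neighbours of a gene are the tested genes within 5 Mb of it. The fits were tested on simulated data. Replicates differed by more than counting error (mean chi-square per gene 2.26 to 11.5), and intervals for 0 counts cover counting error only. Python 3.11.15 with numpy 2.4.6, pandas 2.3.3 and matplotlib 3.10.9 made tables and figures.

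Members were taken by gene symbol, without a criterion on their values, but this set of genes and the gene lists were chosen with earlier results of these data known. Values in every library are given for the mitochondrial members called in a main comparison, for the 5 largest rises and falls among nuclear members called at a mean of at least 5 CPM, and for complex II, CYC1 and CYCS where called. Of the lists, the 2 largest changes and 8 fixed regulators are named; other genes were named after their values were seen. Marker lists for other epithelial cells and fibroblasts gave EPCAM at 3.15 to 12.2 CPM, CLDN4 at 43.5 to 85.3, CLDN3 up to 0.913, KRT14 up to 0.0415 and KRT5 at 0, and COL1A1 at 10.8 to 17.1, PDGFRB at 5.12 to 21.2, and COL1A2, COL3A1, DCN and LUM at no more than 0.23.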

Additional observations from a re-analysis of the deposited data

Results flagged for a closer look

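In KO, KO1 replicate 1 stood apart from the other 5 KO libraries, above them, in 6 mitochondrial mRNAs. Its levels were 1358 CPM for MT-ND1, 1148 CPM for MT-CYB, 1812 CPM for MT-CO2, 2492 CPM for MT-CO3, 1486 CPM for MT-ATP6 and 437 CPM for MT-ATP8, and its mitochondrial share, 1.91%, was also the highest of the 6. Single libraries stood apart in 3 nuclear members, KO1 replicate 2 with NDUFA4 at 57.0 CPM (high) and CYCS at 119.9 CPM (low), and KO2+MK replicate 2 with NDUFB8 at 23.9 CPM (low). These are 9 of 80 groups of values tested, and chance picks out about 1 in 20 where groups are independent. The 6 mitochondrial flags share 1 library and are not independent, and the KO values pool both lines.

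KO1 and KO2 differed by a direct test in 7 nuclear members. The log2 difference, KO1 minus KO2, was 0.31 for NDUFV1 (adjusted p = 3.7e-06), 0.33 for ATP5F1D (0.00011), 0.30 for SDHD (1.1e-05), 0.26 for NDUFA9 (0.00075), 0.36 for ATP5MG (1.2e-07), 0.28 for NDUFS8 (9.9e-06) and -0.26 for UQCRB (6.4e-05), by edgeR's quasi-likelihood test. NDUFV1, SDHD, ATP5MG and NDUFS8 lie on chromosome 11, where 31.0% of the other tested genes were called higher in KO1 than in KO2.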

How the results depend on the processing

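None of the 34 log2 fold changes of called members refitted under each alternative (KO, myrAKT and pooled MK2206 comparisons) changed direction, calls in single lines, between the lines and in the gene lists were not followed gene by gene, and DNA copy number, cell composition and culture effects were not measured. With DESeq2, nuclear members called higher in KO against WT numbered 21 (against 7), those called after MK2206 1 higher and 11 lower, mitochondrial members in KO1 against WT 4 higher and 0 lower, and nuclear members lower after MK2206 2 in each line. With the total of the 13 mRNAs as library size, mitochondrial members called lower were 3 in KO, 4 in KO1 and 3 in KO2 against WT, and 0 after MK2206 pooled and in each line, while 2 were higher in myrAKT and 1 after MK2206 in KO2. After MK2206 MT-ND2, not called in either fit, went from -0.04 to 0.16 on the log2 scale, and 5 in place of 13 of the 13 mRNAs were below 0. Without the filter, 12 nuclear members were higher in KO, 3 mitochondrial ones higher in myrAKT and 1 nuclear one lower after MK2206. In 1 fit of all 18 libraries, 24 nuclear members were higher and 2 lower in KO, 2 mitochondrial ones higher in myrAKT, and 1 nuclear member higher and 17 lower after MK2206. With KO1 and KO2 as separate groups, 24 nuclear members were higher and 5 lower in KO, and with the line as a covariate 1 was higher and 8 lower after MK2206. RLE size factors gave 4 and library totals 1 nuclear member lower after MK2206. A minimum fold of 1.5 left 0 nuclear members higher in KO, 3 mitochondrial ones higher and 0 lower, in myrAKT 0 nuclear members higher and 4 lower, and after MK2206 0 nuclear and 0 mitochondrial lower. Of all 15587 genes, that rule called 635 higher and 1339 lower in KO. It called 770 and 1376 in myrAKT, and 701 and 317 after MK2206. The cause of these differences was not tested. No share of all genes is given for the fits without the filter, of all 18 libraries, with separate groups, with a covariate or with other scalings. The same holds for DESeq2 after MK2206 in each line, and below for single libraries left out and the replicate block. Whether the counts from those fits are particular to the members cannot be read from them.

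Leaving out each library in turn gave 3 to 12 nuclear members higher in KO against WT (3 without WT replicate 1 and 12 without KO2 replicate 2), 3 to 7 mitochondrial ones higher and 0 to 1 lower, and in myrAKT 2 to 3 nuclear higher, 11 to 15 lower, 0 to 2 mitochondrial higher and 0 to 1 lower. After MK2206 it gave 0 to 1 nuclear members higher, 1 to 4 lower and 2 mitochondrial ones lower throughout. In KO1 against WT 17 to 23 nuclear members were higher, 0 to 3 lower, 4 to 7 mitochondrial ones higher and 0 to 2 lower. In KO2 against WT 3 to 10 nuclear members were higher, 4 to 5 lower and 0 to 2 mitochondrial ones lower. After MK2206 in KO1 0 to 1 nuclear and 0 to 6 mitochondrial members were lower, and in KO2 0 to 1 nuclear members were higher and 0 to 5 lower. The median log2 fold change of the mitochondrial minus that of the nuclear members was 0.33 in KO (0.25 to 0.38), 0.25 in myrAKT (0.12 to 0.35) and -0.11 after MK2206 (-0.14 to -0.07). Each gene counts equally in this difference, whereas the ratio of mitochondrial to nuclear reads overlapped between KO and WT.

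The labels do not say whether the replicate numbers pair the samples, and deviations within groups of 3 cannot settle it. Of 45 pairs of libraries with the same number 12 had deviations correlated above 0.1 (median -0.003, range -0.539 to 0.320). With the replicate number as a block, 3 nuclear members were higher and 0 mitochondrial ones lower in KO, 1 mitochondrial one higher in myrAKT, 1 nuclear one lower after MK2206, 1 nuclear and 0 mitochondrial lower in KO1 against WT, and 0 nuclear and 7 mitochondrial lower after MK2206 in KO1.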

Other observations

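Besides the 13 mRNAs, 18 other genes of mitochondrial DNA, tRNAs and rRNAs, passed the filter. In KO against WT the tRNAs MT-TI (log2 fold change 1.00, adjusted p = 0.00028) and MT-TM (0.97, adjusted p = 0.00037), which lie just upstream of MT-ND2, were higher, and 3 of the 18 were lower, beside 15.5% and 16.6% of all genes tested. The 3 were MT-TC (-1.08, adjusted p = 2.2e-06), MT-TY (-0.54, adjusted p = 7.9e-05) and MT-TP (-0.59, adjusted p = 0.00057), all on the opposite strand, where MT-TE (0.46) and MT-TA (0.18) were not called (adjusted p = 0.017 and 0.41). In myrAKT 0 of the 18 were called by edgeR or DESeq2 (2 at an unadjusted p under 0.05, beside 59.2% of all genes), and in MK2206-treated KO cells, both lines pooled, 0 by either tool (8 at an unadjusted p under 0.05, beside 53.4%). By edgeR in KO2 alone, MT-TL2 (0.76, adjusted p = 7.9e-05) and MT-TG (0.96, adjusted p = 0.000997) rose after MK2206, beside 13.1% of all genes. In KO1 alone 0 were called. DESeq2 called 7 of the 18 in KO against WT, beside 41.4% of all genes. The mean count per library was 39 for MT-TI, 51.3 for MT-TM, 1028 for MT-TC, 493 for MT-TY and 382 for MT-TP. Mature tRNAs and precursors cannot be told apart in these counts. As the strand setting of the counting is not given, neither can reads of a tRNA and of the strand opposite to it. The rRNA genes MT-RNR1 and MT-RNR2, targets of the ribosomal RNA depletion, varied from 1.16 to 60.2 and from 1.04 to 141 CPM across the 18 libraries.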
